A study of Mus musculus with 31 samples.

Results

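The comparison described here is that between the nucleus accumbens (NAc) of DBA2/J (DBA) mice that had been repeatedly cross-fostered (RCF) and the NAc of DBA mice that had not. It rests on 8 of the 31 arrays of the series, chosen by their sample names: 4 RCF arrays and 4 control arrays. The RCF mice were females whose whole litter was moved each day, from postnatal day 1 to day 4, into the cage of another dam, so that the pups passed through 4 adoptive mothers. The control mice were females whose litter was picked up daily over the same days and put back with its own mother. Both groups carried no transgene, were weaned on day 28, were 12 weeks old by their sample labels and 9 to 12 weeks by the housing notes, and included at most 2 animals of a cage or litter. The remaining arrays hold the medial prefrontal cortex (mPFC) of DBA mice and both regions of C57BL/6J (C57) mice under the same RCF and control handling. The labels do not tell which animals of a group were littermates, so some samples may share a litter. Standard errors and p-values here rest on 1 spread per feature, shared by all 8 groups of the series, and not on the spread of the DBA NAc arrays alone.

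The NAc is the ventral part of the striatum. Most of its neurons are GABAergic projection neurons that receive dopamine from the midbrain, either through the receptor Drd1, in neurons that make dynorphin and substance P, or through Drd2, in neurons that make enkephalin. These neurons also receive glutamatergic input from the cortex, hippocampus and amygdala, and the region is studied for its part in reward, stress and drug intake. Early handling that disrupts maternal care is used in rodents as a model of adversity, and the series title names vulnerability to cocaine and the X-linked gene Xlr4.

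RNA was measured on 1-colour Agilent arrays. A level below is the deposited log2 value of a gene's brightest probe, scaled so that every array has the same 75th percentile, 11.4303. A difference is the RCF mean minus the control mean on that log2 scale, ± the standard error of the limma fit. Of 25538 features tested, 13717 were named genes. Between 68.9% and 76.4% of the probes of the 8 arrays were well above background, and the number of arrays limits the precision. The median 95% interval of a difference reached 0.38 to either side.

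The leading components of variation set single arrays apart, not the 2 treatments. On the first principal component of the 8 arrays, with 37.8% of the variance, RCF 4 lay at 79.1 and the other 7 arrays between −33.5 and 7.07. On the second, with 27% of the variance, control 4 lay at 52.3, while control 1 lay at −40.2 and RCF 3 at −30.6. After the mean of all 8 arrays was subtracted from each feature, the pair that deviated most alike was RCF 3 with control 1, across the treatments, with a Pearson correlation of 0.628 over features. The next pair, RCF 1 with control 3, had 0.311, and the least alike, RCF 4 with control 2, had −0.587. These correlations run over features of arrays on 1 slide, which are not independent, and describe the arrays only.

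**Figure D1:**
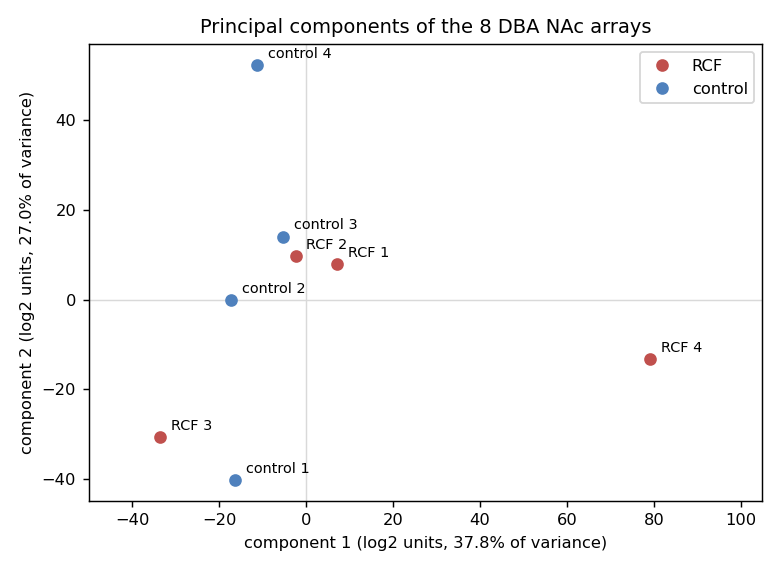
Position of the 8 DBA NAc arrays on the first (x axis, 37.8% of the variance) and second (y axis, 27% of the variance) principal component of the log2 levels of all features; each point is 1 array. RCF 4 stands alone at 79.1 on the first component, control 4 at 52.3 on the second, and RCF 3 lies near control 1 rather than near the other RCF arrays.

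Control 4 carried the expression marks of the C57 strain. The check used 238 features that differed by more than 2 on the log2 scale, at an adjusted p under 0.05, between the RCF mPFC arrays of the 2 strains. No NAc array enters that difference, but NAc arrays share in the spread of its fit, and C57 mPFC RCF 1 carried striatal marks. Control 4 was nearer to the C57 NAc mean than to the mean of the other DBA NAc arrays for 174 features (73.1%). For the other 7 DBA NAc arrays that share lay between 6.3% and 16.8%. Glo1, a glyoxalase known for its higher copy number in DBA mice, was at 12.73 in control 4 and between 13.78 and 14.24 on the other 7 arrays. The mean of the measured strain markers higher in DBA was 11.74 in control 4, between 12.71 and 13.06 on the other 7, and between 11.38 and 11.62 in the C57 NAc. Control 4 thus lay nearer to the C57 arrays but outside their range. Rbbp9, a serine hydrolase chosen for its large spread over these 8 arrays, was at 11.09 in control 4, between 4.43 and 5.25 on the other 7, and between 10.73 and 11.35 in the C57 NAc. Gpnmb, a membrane glycoprotein that DBA mice carry as a truncated allele, was read from the scanner signal because its probe is not in the deposited matrix: relative to each array's 75th percentile it was at −4.46 in control 4, where alone it was well above background, between −8.92 and −8.11 on the other 7 arrays, and between −5.11 and −2.98 in the C57 NAc. Results below are therefore given with all 8 arrays and without control 4. Outside the closing comparisons with other groups, where a gene has 1 difference only, it is that of all 8 arrays, and leaving out control 4 changed it by less than 1.5 times.

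RCF 3 and control 1 had lower levels of striatal projection neuron markers than the other 6 arrays. The mean level of 26 striatal markers was 13.47, 13.49, 11.73 and 13.40 in RCF 1 to RCF 4, against 11.71, 13.04, 13.51 and 13.50 in control 1 to control 4. RCF 3 and control 1 were the 2 lowest arrays for 24 of the 26 markers, compared with 10.9% of all features. Drd1 was at 12.27, 12.26, 10.02 and 12.44 in RCF mice, against 9.86, 11.67, 12.37 and 12.11 in control mice. Adora2a, the adenosine receptor of the enkephalin neurons, was at 13.26, 12.99, 10.28 and 13.19 in RCF mice, against 10.39, 12.47, 13.15 and 13.54 in control mice. The same arrays were the 2 highest for 7 of 10 markers of the septum, pallidum and olfactory tubercle and for 15 of 23 myelin genes, compared with 11.4% of all features. Slc17a6, the vesicular glutamate transporter of subcortical neurons, was at 11.33 in RCF 3 and 11.35 in control 1 and between 9.33 and 10.50 elsewhere. In tissue of mixed cells, fewer cells of a type and less RNA per cell cannot be told apart.

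RCF 4 stood apart in another way. The mean of 20 cortical excitatory neuron markers was 9.00, 9.46, 8.88 and 10.25 in RCF 1 to RCF 4, against 9.08, 8.84, 8.97 and 9.18 in control 1 to control 4, and RCF 4 was the highest array for 11 of the 20. Over all features RCF 4 was the highest array for 17.5% and the lowest for 36.6%. Neurod2, a transcription factor of cortical glutamatergic neurons, was at 7.21, 9.45, 7.48 and 11.87 in RCF mice, against 7.73, 6.59, 7.81 and 8.57 in control mice. RCF 4 also had the highest mean of 32 endothelial, mural and meningeal markers, 10.38, with the other arrays between 9.62 and 10.22. The tissue score (striatal minus cortical list) of each of the 8 arrays, 2.64 to 4.53, lay on the NAc side of the midpoint between the regions, 1.96.

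All 8 arrays lay on 1 slide, so slide does not separate the treatments, but position on it partly does. On the other 3 slides all 12 RCF arrays were in slide columns 3 and 4 and all 11 control arrays in columns 1 and 2. On the DBA NAc slide, 3 of 4 RCF arrays and 1 of 4 control arrays were in columns 3 and 4; the exceptions were RCF 3 in column 2 and control 4 in column 4. Whether these 2 arrays hold the RNA their labels name was not tested, and every difference below takes them as labelled unless it is said to leave them out. Without both, a choice made after seeing the data, 1467 features had an unadjusted p under 0.05 and 0 an adjusted p under 0.05. A fit with each array's tissue score as a covariate gave 0 features at an adjusted p under 0.05. At an unadjusted p under 0.05 it gave 510, and 349 without control 4. Slide row was a block in another fit, given with the alternatives at the end. Beyond these fits and leaving out the arrays named here, the part of strain marks, cell types or slide position in the differences between treatments was not tested.

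**Figure D2:**
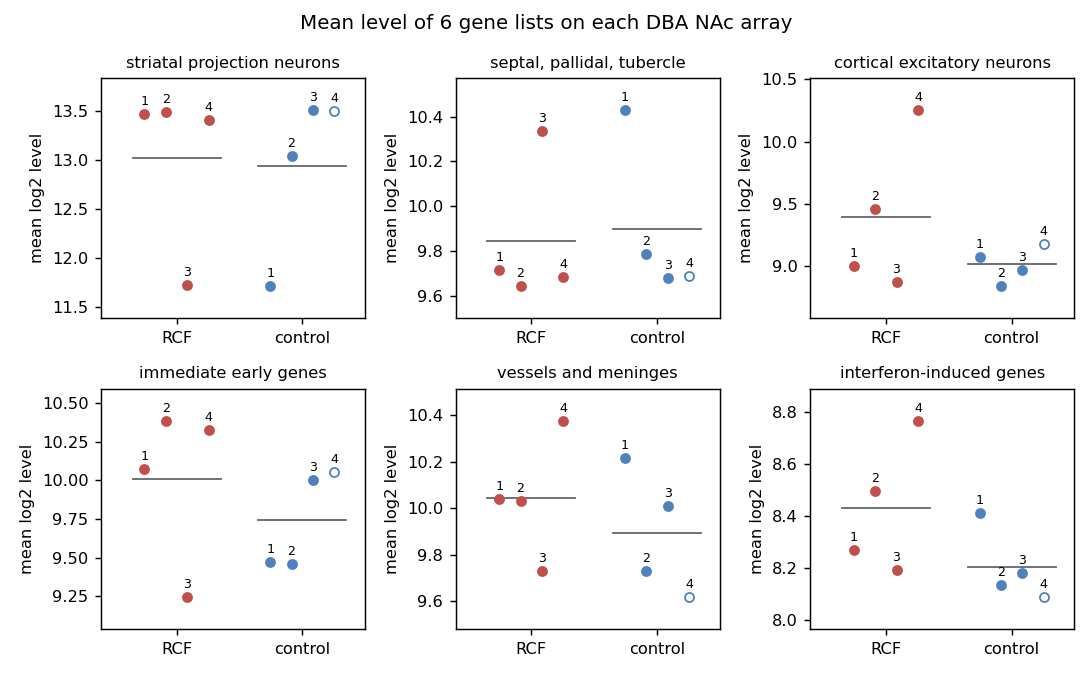
Mean log2 level (y axis) of 6 gene lists on each DBA NAc array, RCF left and control right; numbers are replicates, the grey line is the group mean, and control 4 is drawn open. RCF 3 and control 1 are low for striatal markers (11.73 and 11.71) and high for septal, pallidal and tubercle markers, and RCF 4 is highest for cortical, vascular and interferon-induced genes.

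No feature passed adjustment for multiple testing between RCF and control mice. The limma fit with Benjamini-Hochberg adjustment over 25538 features gave 0 features (0%) at an adjusted p under 0.05, both with all 8 arrays and without control 4, and adjusted p was 1 to 3 significant digits throughout. At an unadjusted p under 0.05 there were 111 features higher in RCF mice (0.435%) and 322 lower (1.26%) with all 8 arrays. Without control 4 there were 115 higher (0.45%) and 140 lower (0.548%). In both fits the 2 directions together are fewer than a threshold of 0.05 would give with no difference anywhere. Both fits shared 149 of these features, 57 higher and 92 lower, none with opposite signs; 284 passed only with all arrays and 106 only without control 4. The count of 433 features at an unadjusted p under 0.05 depended on single arrays: it was 154 if RCF 4 was left out, 1591 if RCF 3 was, 856 and 835 if RCF 1 or RCF 2 was, and 897 if control 1 was, with 0 at an adjusted p under 0.05 each time. With all 8 arrays, the RCF and control values did not overlap for 66 features with RCF above (0.258%) and for 78 with RCF below (0.305%). Without control 4, 175 features (0.685%) had all RCF values above and 243 (0.952%) all below. The genes named in the next paragraphs are those with the smallest unadjusted p or the largest non-overlapping differences, and each has an adjusted p of 1. The median SD of a feature was 0.27 over RCF arrays (n = 4), against 0.198 over control arrays (n = 4) and 0.157 over control arrays 1 to 3.

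Among genes higher in RCF mice, Sprr4, which encodes a small proline-rich protein of the cornified envelope of skin, had the smallest p. Its levels were 5.63, 5.57, 5.09 and 5.46 in RCF mice, against 4.00, 4.12, 4.54 and 4.19 in control mice. The groups did not overlap, and the difference was 1.23 ± 0.28 (limma, unadjusted p = 0.000194) with all arrays and 1.22 ± 0.31 without control 4. The gene is close to the floor of the deposited table, with a mean level above only 0.638% of features. RCF minus control was 0.59 for Sprr4 in the DBA mPFC and 0.70 in the C57 NAc.

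Cftr, a chloride channel, was at 7.19, 7.46, 6.67 and 6.78 in RCF mice, against 6.60, 6.25, 5.87 and 6.18 in control mice. All RCF values lay above all control values, by 0.80 ± 0.26 on average (unadjusted p = 0.00481), and by 0.78 ± 0.28 without control 4. Rab7b, a small GTPase of traffic between endosomes and the Golgi, was at 7.32, 7.87, 7.55 and 7.85 in RCF mice, against 6.97, 7.23, 6.86 and 6.09 in control mice. Control 4 was the lowest array for Rab7b, and the difference of 0.86 ± 0.26 (unadjusted p = 0.00278) was 0.62 ± 0.25 without it.

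Syt10, a synaptotagmin that acts as a calcium sensor for secretion, had the largest positive difference of all features, 1.58 ± 0.53 (unadjusted p = 0.00682), and 1.42 ± 0.58 without control 4. Its levels were 7.88, 10.18, 9.98 and 7.12 in RCF mice, against 7.73, 7.34, 7.05 and 6.72 in control mice. RCF 2 and RCF 3 were high, while RCF 1 and RCF 4 lay close to or within the range of the controls. Akap7, an anchoring protein of protein kinase A, was at 12.89, 12.84, 12.42 and 12.58 in RCF mice, against 12.21, 12.04, 11.51 and 12.67 in control mice. Control 4 lay among the RCF values, and the difference of 0.58 ± 0.23 (unadjusted p = 0.0191) was 0.77 ± 0.23 (unadjusted p = 0.00294) without it. Gab3, a signalling adaptor named from the fit without control 4, differed by 0.29 ± 0.16 with all arrays and by 0.44 ± 0.15 without control 4, and its highest control value, 15.95, was again that of control 4.

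G6pc, the catalytic subunit of glucose-6-phosphatase, was at 6.47, 6.38, 5.97 and 6.76 in RCF mice, against 5.64, 5.75, 5.98 and 5.86 in control mice. Only RCF 3 lay within the control range, and the difference was 0.58 ± 0.20 with all arrays and 0.60 ± 0.22 without control 4. The intramembrane protease gene Rhbdd1 had a difference of 0.64 ± 0.34 (unadjusted p = 0.0762) with no overlap, 5.39 to 5.99 in RCF mice and 4.86 to 5.31 in control mice, and 0.69 ± 0.38 without control 4. Its mean level was above only 3.15% of features.

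Among genes lower in RCF mice, Ezhip and Tcp11l1 had the smallest p. Ezhip, an X-linked gene whose protein inhibits the polycomb methyltransferase complex, was at 5.95, 6.05, 6.19 and 5.88 in RCF mice, against 6.34, 6.24, 6.71 and 6.91 in control mice. The groups did not overlap, and the difference was −0.53 ± 0.16 (unadjusted p = 0.0023), and −0.41 ± 0.16 without control 4. Tcp11l1 was at 5.91, 6.30, 6.44 and 5.02 in RCF mice, against 6.59, 6.69, 6.47 and 7.00 in control mice. RCF 4 was far below the other RCF arrays, RCF 3 lay just under the lowest control, and the difference was −0.77 ± 0.22 (unadjusted p = 0.00232), and −0.67 ± 0.24 without control 4.

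Hjurp, the chaperone that loads the centromeric histone variant, had the largest negative difference of all features, −1.66 ± 0.49 (unadjusted p = 0.00267), and −1.41 ± 0.52 without control 4. Its levels were 4.67, 5.72, 6.06 and 4.36 in RCF mice, against 5.69, 5.94, 8.20 and 7.62 in control mice, with a mean above only 8.85% of features. Control 3 and control 4 were high, whereas control 1 and control 2 lay among the RCF values. Gkn3, a gastrokine gene known in mouse brain as a marker of arterial endothelium, was at 9.66, 9.62, 9.19 and 9.94 in RCF mice, against 10.63, 9.71, 10.51 and 10.42 in control mice. The difference was −0.72 ± 0.22 (unadjusted p = 0.00303), and −0.68 ± 0.24 without control 4; control 2 lay among the RCF values.

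Pcdh18, a protocadherin of cell adhesion, was at 9.48, 9.26, 9.90 and 8.39 in RCF mice, against 9.89, 10.10, 9.84 and 9.86 in control mice, a difference of −0.66 ± 0.23, and −0.68 ± 0.25 without control 4. The 4 controls lay within a narrow range, and RCF 3 lay inside it. Mrpl35, a protein of the mitochondrial ribosome, differed by −0.74 ± 0.23 (−0.63 ± 0.25 without control 4), with RCF 4 lowest at 7.60 and control 4 highest at 9.63. Slc38a11, an amino acid transporter gene, differed by −0.55 ± 0.18 (−0.45 ± 0.19 without control 4), again with RCF 4 lowest, at 6.65, and control 4 highest, at 7.94. Bmp10, a ligand of the bone morphogenetic protein family, was at 4.51, 4.74, 4.18 and 4.05 in RCF mice, against 5.02, 4.77, 5.17 and 4.32 in control mice. It differed by −0.45 ± 0.16 with all arrays and by −0.62 ± 0.15 (unadjusted p = 0.000367) without control 4, at a mean level above only 0.262% of features. The olfactory receptor genes Olfr1441 and Olfr1170, also at the floor, differed by −0.48 ± 0.16 and −0.54 ± 0.19, and by −0.52 ± 0.18 and −0.51 ± 0.21 without control 4.

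For 3 genes with no overlap and a large mean difference, 1 array decided the size. Mzt1, a part of the gamma-tubulin complex, was between 8.78 and 9.13 in RCF mice, against 9.23, 9.18, 9.30 and 11.39 in control mice, so that the difference of −0.83 ± 0.42 was −0.29 ± 0.36 without control 4. Spint2, a serine protease inhibitor, was at 10.80, 10.82, 11.03 and 8.73 in RCF mice, against 11.06, 11.09, 11.27 and 11.04 in control mice. Olfr94 was at 6.17, 6.28, 6.27 and 3.88 in RCF mice, against 6.36, 6.33, 6.55 and 6.34 in control mice. In both of the last genes RCF 4 lay far below the other RCF arrays, which were close to the controls.

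**Figure D3:**
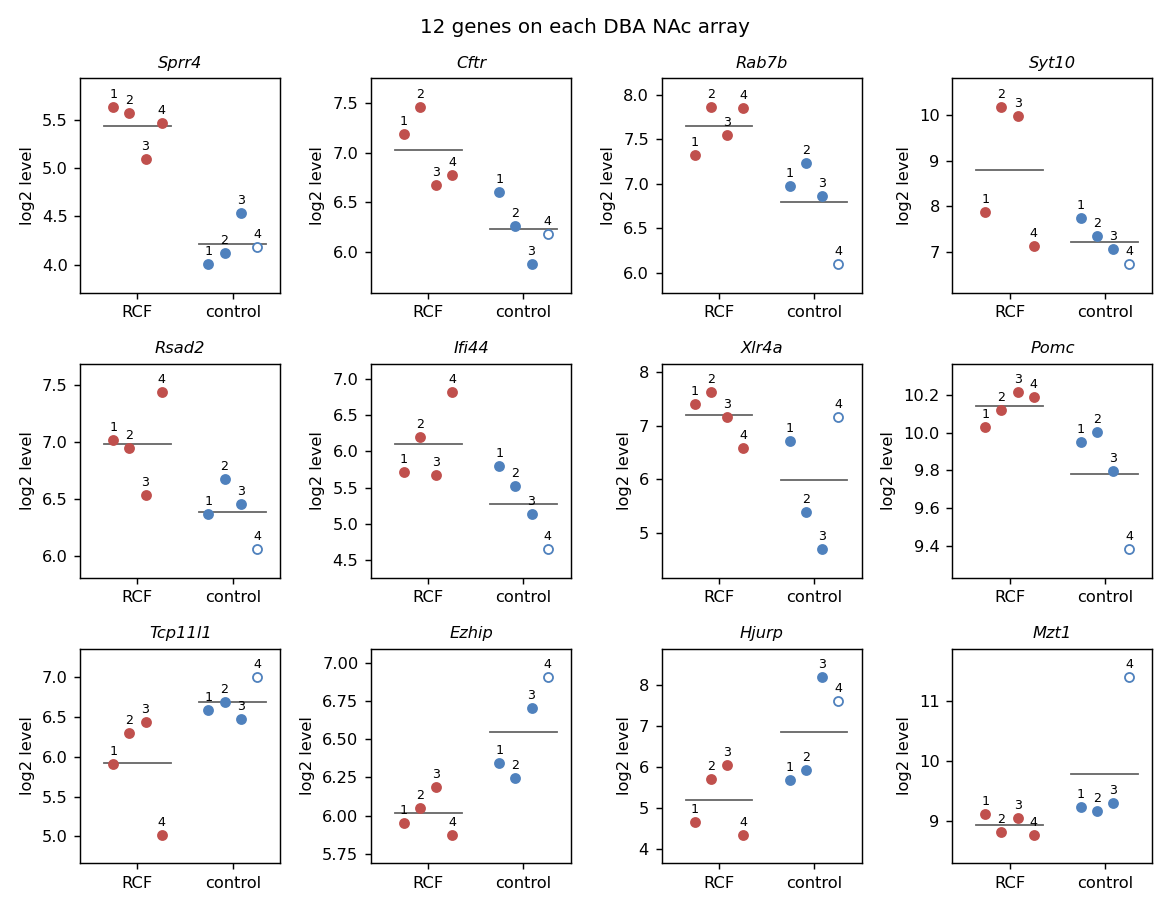
Log2 level (y axis) of 12 genes on each DBA NAc array, RCF left and control right; numbers are replicates, the grey line is the group mean, and control 4 is drawn open. Sprr4 has RCF at 5.09 to 5.63 and control at 4.00 to 4.54; Syt10 is high only in RCF 2 and RCF 3, Hjurp only in control 3 and control 4, and Mzt1 only in control 4.

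Genes of the interferon response recurred among the genes higher in RCF mice: Ifi44, Rsad2, Gbp2 and Oas1f were among the 10 with the smallest p. These genes are switched on by interferons through transcription factors that bind an interferon-stimulated response element, and their products restrict viruses. A list of 58 interferon-induced genes was drawn up after these 4 had been seen, so its count describes the pattern and does not test it. Of 48 members measured, 41 were higher and 7 lower in RCF mice, with a median difference of 0.17, while over all features 11004 were higher and 14534 lower, with a median of −0.03. Unadjusted p was under 0.05 for 7 members with all arrays, all of them higher, compared with 0.435% of all features, and for 4 without control 4, also all higher, compared with 0.45%. The genes that prompted the list make up most of these: Ifi44, Rsad2, Gbp2 and Oas1f are among the 7, and all but Gbp2 among the 4. Without control 4, 40 were higher and 8 lower, with a median of 0.16.

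Ifi44 was at 5.71, 6.20, 5.68 and 6.82 in RCF mice, against 5.79, 5.52, 5.14 and 4.65 in control mice, a difference of 0.82 ± 0.25 (unadjusted p = 0.00356), and 0.62 ± 0.25 without control 4. The mean level of Ifi44 was above only 5.45% of features. Rsad2, or viperin, was at 7.02, 6.95, 6.53 and 7.44 in RCF mice, against 6.37, 6.68, 6.45 and 6.06 in control mice, a difference of 0.60 ± 0.19 (unadjusted p = 0.00406), and 0.49 ± 0.20 without control 4. The groups overlapped for both genes, RCF 4 was the highest array and control 4 the lowest. Gbp2, an interferon-induced GTPase, was at 8.11, 8.57, 7.96 and 8.94 in RCF mice, against 8.26, 7.86, 7.93 and 7.12 in control mice. Its difference of 0.60 ± 0.23 (unadjusted p = 0.0141) was 0.38 ± 0.22 (unadjusted p = 0.0919) without control 4. Oas1f, of the oligoadenylate synthetase family, was at 6.66, 7.45, 6.42 and 7.16 in RCF mice, against 6.63, 6.37, 6.33 and 6.47 in control mice, a difference of 0.48 in both fits. RCF 2 and RCF 4 were high, and RCF 1 and RCF 3 lay within or next to the control range.

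Isg15, a ubiquitin-like modifier, was at 9.79, 10.27, 9.59 and 10.29 in RCF mice, against 9.86, 9.43, 9.47 and 9.52 in control mice, a difference of 0.41 ± 0.19, and 0.40 ± 0.21 without control 4. Ifit1, which binds viral RNA, was at 6.83, 7.06, 5.99 and 7.82 in RCF mice, against 6.86, 5.94, 6.21 and 6.02 in control mice, a difference of 0.67 ± 0.29, and 0.59 ± 0.32 without control 4. Isg15 and Ifit1 were chosen after their values were seen. Irf9, a transcription factor of the pathway, differed by 0.08 ± 0.16. The mean over the list was 8.27, 8.50, 8.19 and 8.77 in RCF 1 to RCF 4, against 8.41, 8.13, 8.18 and 8.09 in control 1 to control 4, so that the groups overlapped. RCF 4 was the highest array for 26 of the 48 members, against 17.5% of all features, and control 4 the lowest for 19, against 15.1%. The same arrays had the highest and the lowest vascular score, and without RCF 4 the median of the list was 0.07.

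The promoters of 4 of these genes are shown because they carry the letters of the response element. Each is 300 bases of RefSeq sequence in GRCm38.p6, from 250 bases before the start of the gene to 50 after it, read in the direction of the gene, with matches to GAAA, any 2 bases and GAAA (TTTC, any 2 bases and TTTC where it lies on the other strand) in capitals, overlapping matches joined. The motif is in 3.44% of the 32851 promoters of the table and in 18 of the 43 promoters that the table holds for measured members of the list (41.9%). A match describes letters only. Rsad2 (chr12:26456403-26456702, minus strand) and Gbp2 (chr3:142620413-142620712, plus strand) have 1 match each, Ifit1 (chr19:34640639-34640938, plus strand) has 2, and Isg15 (chr4:156200769-156201068, minus strand) has 3.
Rsad2: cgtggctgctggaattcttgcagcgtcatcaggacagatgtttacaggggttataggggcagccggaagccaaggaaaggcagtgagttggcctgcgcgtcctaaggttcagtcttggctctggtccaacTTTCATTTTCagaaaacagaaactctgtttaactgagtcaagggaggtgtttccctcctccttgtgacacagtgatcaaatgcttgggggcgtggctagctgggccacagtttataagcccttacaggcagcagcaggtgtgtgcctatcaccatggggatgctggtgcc
Gbp2: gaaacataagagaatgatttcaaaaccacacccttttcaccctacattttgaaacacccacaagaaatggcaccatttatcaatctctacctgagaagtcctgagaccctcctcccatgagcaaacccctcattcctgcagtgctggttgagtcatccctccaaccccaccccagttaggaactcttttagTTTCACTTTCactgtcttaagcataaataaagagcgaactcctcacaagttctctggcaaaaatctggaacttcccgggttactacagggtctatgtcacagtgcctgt
Ifit1: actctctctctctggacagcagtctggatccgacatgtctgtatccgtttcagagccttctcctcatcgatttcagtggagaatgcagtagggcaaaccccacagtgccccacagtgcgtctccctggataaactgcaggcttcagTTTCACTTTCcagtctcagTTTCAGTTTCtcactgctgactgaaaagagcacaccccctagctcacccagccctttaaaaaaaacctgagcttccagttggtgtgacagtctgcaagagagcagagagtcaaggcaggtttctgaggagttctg
Isg15: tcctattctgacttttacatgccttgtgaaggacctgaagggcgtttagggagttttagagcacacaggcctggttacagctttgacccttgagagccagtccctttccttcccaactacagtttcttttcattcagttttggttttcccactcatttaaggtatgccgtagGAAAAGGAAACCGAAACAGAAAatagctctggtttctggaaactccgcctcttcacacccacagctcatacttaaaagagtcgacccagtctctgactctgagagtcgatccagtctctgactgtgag

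The other gene lists are described by the number of members higher and lower in RCF mice and by their median difference; no member of any list passed the adjusted threshold. Among lists of at least 5 measured genes, cortical excitatory neuron markers had the highest median, 0.34, with 17 of 20 higher, and 0.41 without control 4, also with 17 higher. Neurod2 differed by 1.33 ± 1.08, Bhlhe22, a cortical transcription factor, by 0.99 ± 0.91, and Cplx3, a complexin of deep-layer cortical neurons, by 0.58 ± 0.36. Slc17a7 and Neurod6, absent from the deposited matrix and read from the scanner signal, were well above background on all 4 RCF arrays but on only 2 and 3 of the 4 control arrays, so no difference is given. Relative to each array's 75th percentile Slc17a7, the vesicular glutamate transporter of cortical neurons, was at −5.02, −1.21, −4.91 and 0.94 in RCF mice, against −3.90, −7.57, −5.67 and −2.59 in control mice. RCF 4 and RCF 2 were highest, and without RCF 4 the median of the list was 0.09.

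Immediate early genes, which neurons transcribe within minutes of activity, followed with a median of 0.31 and 18 of 24 higher, and 0.37 with 21 higher without control 4. Nr4a1, a nuclear receptor, was at 13.74, 14.31, 11.97 and 13.52 in RCF mice, against 11.88, 12.38, 13.39 and 13.75 in control mice, a difference of 0.53 ± 0.42, and 0.83 ± 0.44 without control 4. Arc, an organiser of synaptic plasticity, was at 12.56, 13.26, 10.40 and 12.22 in RCF mice, against 10.53, 11.14, 12.50 and 12.21 in control mice, a difference of 0.52 ± 0.54. Fos, a subunit of the AP-1 transcription factor, differed by 0.44 ± 0.48, Npas4 by 0.29 ± 0.46, Gadd45b by 0.36 ± 0.30, Btg2 by 0.42 ± 0.37 and the neurotrophin Bdnf by 0.92 ± 0.75. The 2 arrays low in striatal markers, RCF 3 and control 1, were also the 2 lowest for 11 of the 24 genes. The groups overlapped in the mean of the list, which was 10.07, 10.39, 9.24 and 10.33 in RCF mice, against 9.47, 9.46, 10.003 and 10.05 in control mice.

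Genes of dopamine reception and its signalling in striatal neurons had 16 of 19 members higher and a median of 0.15, which was 0.31 without control 4, with 17 higher. RCF 3 and control 1 were the 2 lowest arrays for 18 of the 19. Rgs4, a regulator of G-protein signalling, was at 13.82, 13.63, 11.85 and 13.76 in RCF mice, against 11.96, 12.80, 13.53 and 12.67 in control mice, a difference of 0.52 ± 0.47. Itpr1, the inositol trisphosphate receptor, differed by 0.38 ± 0.39, and Arpp19, a phosphatase inhibitor, by 0.36 ± 0.28. Drd1 differed by 0.25 ± 0.94, with a 95% interval from −1.70 to 2.20, and by 0.45 ± 1.04 without control 4. Drd2 and Drd3, read from the scanner signal, differed by −0.37 ± 0.73 and −0.40 ± 0.92, and by −0.15 ± 0.80 and −0.17 ± 1.01 without control 4. Intervals this wide leave room for large differences in either direction. Striatal projection neuron markers had 19 of 26 higher and a median of 0.09, and 24 higher and 0.31 without control 4, but the median was −0.48 without RCF 4 and control 1.

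The enzymes and transporters of dopamine synthesis, transport and breakdown, which the dopamine neurons of the midbrain express, had 6 of 11 higher and a median of 0.02, which turned to 5 of 11 and −0.05 without control 4. Th, the rate-limiting enzyme, was at 10.74, 10.44, 10.72 and 9.97 in RCF mice, against 10.80, 10.78, 10.54 and 10.75 in control mice, a difference of −0.25 ± 0.34. Ddc, the decarboxylase of the next step, differed by −0.50 ± 0.48 and the vesicular transporter Slc18a2 by −0.49 ± 0.43, in each case with RCF 4 lowest, at 10.32 and 6.55. Slc6a3, the dopamine transporter, which is the target of cocaine, differed by 0.18 ± 0.46, and by 0.27 ± 0.51 without control 4.

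Of 23 neuropeptide genes, 16 were higher and 7 lower in both fits, with a median of 0.07, and 0.17 without control 4. Pomc, the precursor of endorphin and melanocortins, was the only member at an unadjusted p under 0.05, compared with 0.435% of all features higher and 1.26% lower. A single call among 23 genes is not read as a result about the list. Pomc was at 10.03, 10.12, 10.21 and 10.19 in RCF mice, against 9.95, 10.004, 9.79 and 9.38 in control mice. The groups did not overlap, as for 0.258% of all features with RCF above. The difference of 0.35 ± 0.14 (limma, unadjusted p = 0.0209) was 0.22 ± 0.14 (unadjusted p = 0.123) without control 4. Penk (enkephalin), Pdyn (dynorphin) and Tac1 (substance P) differed by −0.02 ± 0.92, 0.05 ± 0.92 and 0.03 ± 0.95, and by 0.12 ± 1.01, 0.30 ± 1.01 and 0.23 ± 1.04 without control 4. Tac1 was at 16.41, 16.22, 13.82 and 16.02 in RCF mice, against 14.02, 15.63, 16.52 and 16.17 in control mice, so the array low in striatal markers set the lowest value in each group. The opioid receptors Oprk1 and Oprm1 differed by 0.09 ± 0.74 and 0.14 ± 0.25, and by 0.17 ± 0.82 and 0.23 ± 0.27 without control 4. Cck, a peptide of cortical and interneuron origin, differed by 1.26 ± 0.91 and Vip, an interneuron peptide, by 1.15 ± 0.96, with RCF 4 highest at 15.96 and 10.11.

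Oxytocin varied more than its group difference. Oxt, whose RNA is made in hypothalamic neurons, was at 10.82, 8.08, 14.44 and 8.43 in RCF mice, against 16.05, 9.14, 12.62 and 5.60 in control mice. The difference was −0.41 ± 1.40 with all arrays and −2.16 ± 1.18 without control 4, the lowest of all features in that fit. RCF 3 and control 1 were the 2 highest arrays, and control 4, at 5.60, lay in the range of the C57 NAc, 5.35 to 6.55. The receptor Oxtr differed by 0.35 ± 0.44, and by 0.21 ± 0.47 without control 4. Crh, the corticotropin-releasing hormone, was also highest in RCF 3, at 12.29, and control 1, at 12.06, and differed by −0.63 ± 0.54; its receptor Crhr1 differed by 0.16 ± 0.38 (0.09 ± 0.41 without control 4) and its binding protein Crhbp by 0.57 ± 0.47.

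Glucocorticoid receptors and their target genes, the transcriptional side of the stress response, had 10 of 24 higher and 14 lower, with a median of −0.04; without control 4 they split 12 to 12. Nr3c1, the glucocorticoid receptor, was between 13.08 and 13.22 in RCF mice and between 13.01 and 13.18 in control mice, a difference of 0.03 ± 0.11 with a 95% interval from −0.21 to 0.26, the narrowest among the genes plotted with their intervals, and of 0.02 ± 0.12 without control 4. Fkbp5, a co-chaperone of the receptor and one of its targets, differed by 0.13 ± 0.26. Hif3a, a subunit of the hypoxia-inducible factors, was at 8.56, 7.80, 8.05 and 8.32 in RCF mice, against 9.00, 8.08, 8.80 and 8.50 in control mice, a difference of −0.41 ± 0.19 (unadjusted p = 0.0414), and −0.44 ± 0.21 without control 4. Tsc22d3, the glucocorticoid-induced leucine zipper, was at 12.89, 12.46, 12.97 and 12.56 in RCF mice, against 13.73, 12.77, 12.93 and 12.82 in control mice, a difference of −0.34 ± 0.18, and −0.42 ± 0.19 without control 4. Without control 4, 3 members had an unadjusted p under 0.05, all lower, compared with 0.548% of all features: Hif3a, Tsc22d3 and Plin4.

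**Figure D4:**
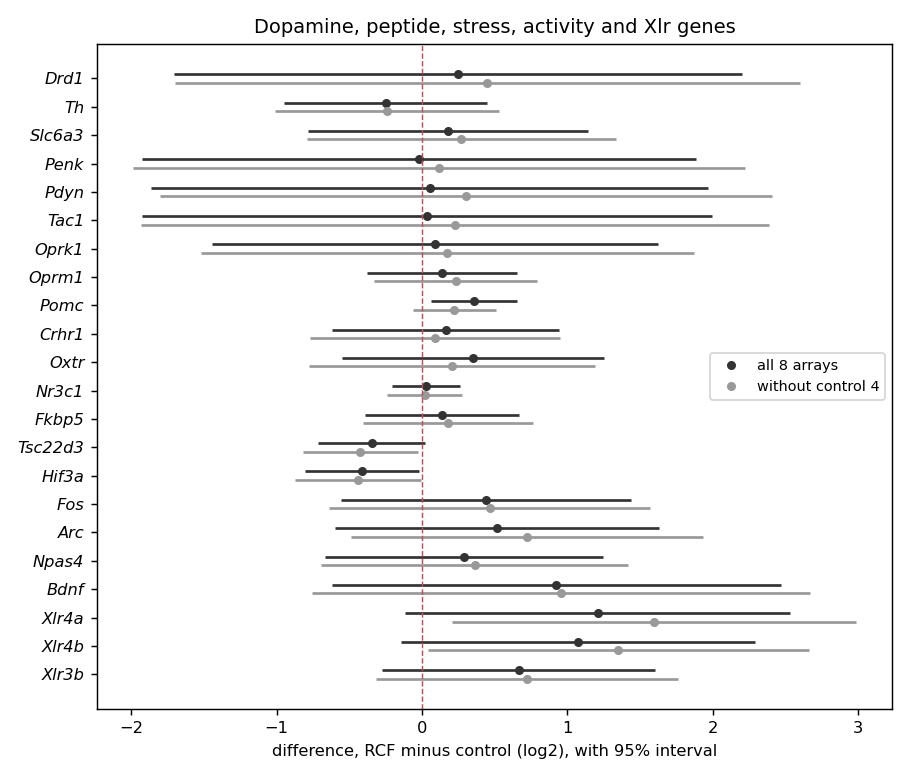
Difference between RCF and control DBA NAc (x axis, log2) of 22 genes of dopamine, peptide, stress, activity and Xlr groups, with the 95% interval of the limma fit; dark with all 8 arrays, grey without control 4. Intervals of striatal genes such as Drd1 run from −1.70 to 2.20, that of Nr3c1 from −0.21 to 0.26, and those of Xlr4a and Xlr4b exclude 0 only without control 4.

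The Xlr genes, an X-linked family of which the study's title names Xlr4, were higher on average in RCF mice. Xlr4a was at 7.40, 7.63, 7.17 and 6.59 in RCF mice, against 6.71, 5.40, 4.69 and 7.16 in control mice, a difference of 1.21 ± 0.64 (unadjusted p = 0.0713), and 1.60 ± 0.67 (unadjusted p = 0.0263) without control 4. Xlr4b was at 7.85, 8.00, 7.55 and 7.22 in RCF mice, against 7.20, 6.20, 5.51 and 7.41 in control mice, a difference of 1.07 ± 0.59, and 1.35 ± 0.63 (unadjusted p = 0.0436) without control 4, when the groups no longer overlapped. Xlr3b, at 9.23 to 9.45 in RCF mice and 7.99 to 9.27 in control mice, differed by 0.66 ± 0.45. The family members are near-identical in sequence, so their probes may share signal, and control 2 and control 3 carried the low values of all 3.

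Receptors for glutamate, GABA and the amines had members in both directions. Glutamate receptor genes split 12 to 12, and had 14 of 24 higher without control 4, with Gria3, an AMPA receptor subunit, at the top with 0.46 ± 0.34. GABA receptors and GABA handling had 8 of 19 higher, and 9 without control 4, with the astrocytic GABA transporter Slc6a11 at −0.48 ± 0.38. Serotonin, adrenergic and cholinergic receptors had 12 of 21 higher, and 11 without control 4. Chrna4, a nicotinic subunit, differed by −0.61 ± 0.40, and by −0.33 ± 0.41 without control 4. Of 9 endocannabinoid genes 8 were higher in both fits, with a median of 0.13, and 0.09 without control 4; the receptor Cnr1 differed by 0.29 ± 0.25 and the degrading enzyme Mgll by 0.20 ± 0.26.

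Chromatin enzymes had 20 of 39 higher, and 25 without control 4, and Suv39h1, a histone methyltransferase, differed by −0.44 ± 0.24. Clock genes turned with the choice of arrays: 9 of 21 were higher with a median of −0.02 with all arrays, and 14 of 21 with a median of 0.09 without control 4. Per3, a clock repressor, differed by −0.57 ± 0.33. Imprinted genes had 18 of 27 lower, with a median of −0.08, and 20 lower without control 4, with −0.06. Grb10, an inhibitor of insulin signalling, was at 9.18, 8.84, 9.85 and 7.61 in RCF mice, against 9.83, 9.47, 9.18 and 9.66 in control mice. Chaperones and stress response genes had 19 of 26 lower in both fits, with a median of −0.06, and −0.13 without control 4; Pdia4, a protein disulphide isomerase, differed by −0.67 ± 0.37. Genes that pattern the accumbens shell and core had 3 of 8 higher, but 5 without control 4, and choroid plexus and ependymal markers 4 of 11, but 6 without control 4. Neurotrophins and their receptors had 6 of 10 higher, interneuron markers 9 of 16, and septal, pallidal and tubercle markers 5 of 10, and each of these lists had 1 fewer without control 4.

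Cytosolic ribosomal protein genes were slightly lower in RCF mice for 72 of 80 members, with a median of −0.09, and for 76 of 80 without control 4, with −0.14. Nuclear-coded subunits of oxidative phosphorylation were lower for 60 of 78, with a median of −0.06, and for 72 of 78 without control 4, with −0.12. RCF 4 was the lowest array for 57 of the 80 and 54 of the 78, compared with 36.6% of all features. The mean of the ribosomal list was 16.15, 15.63, 15.86 and 15.45 in RCF 1 to RCF 4, against 15.80, 15.94, 15.99 and 15.75 in control 1 to control 4. RCF 1 was the highest of all 8 arrays and RCF 4 the lowest. Without RCF 4 the median was 0.02 for the ribosomal list, so that its direction turned.

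Among glial and vascular lists, 8 of 9 oligodendrocyte precursor markers were lower, with a median of −0.17 in both fits; the chondroitin sulphate proteoglycan Cspg4 differed by −0.18 ± 0.18. Myelin genes had 18 of 23 lower, with a median of −0.10, and 20 without control 4, with −0.11. Against that direction Ermn, a cytoskeletal protein of myelin sheaths, was at 15.34, 15.24, 14.89 and 15.12 in RCF mice, against 15.01, 14.73, 14.33 and 15.14 in control mice, a difference of 0.34 ± 0.17, and 0.46 ± 0.18 (unadjusted p = 0.0199) without control 4. Microglial markers had 14 of 22 lower, and 15 without control 4, with the complement gene C1qb at −0.41 ± 0.18 (unadjusted p = 0.037), and −0.23 ± 0.18 without control 4, which at 10.56 was its highest array. Astrocyte markers had 15 of 22 lower, with a median of −0.04, and 14 without control 4, with −0.07. Endothelial, mural and meningeal markers had 29 of 32 higher and a median of 0.14, but 19 of 32 and 0.04 without control 4, and a median of 0.025 without RCF 4. Cldn5, the tight-junction protein of the blood-brain barrier, was at 12.03, 11.81, 11.99 and 12.35 in RCF mice, against 11.77, 11.89, 11.55 and 11.18 in control mice, a difference of 0.45 ± 0.21 (unadjusted p = 0.0497), and 0.31 ± 0.22 without control 4. Blood cell markers had 6 of 8 lower, with a median of −0.13, and 7 without control 4, with −0.34.

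**Figure D5:**
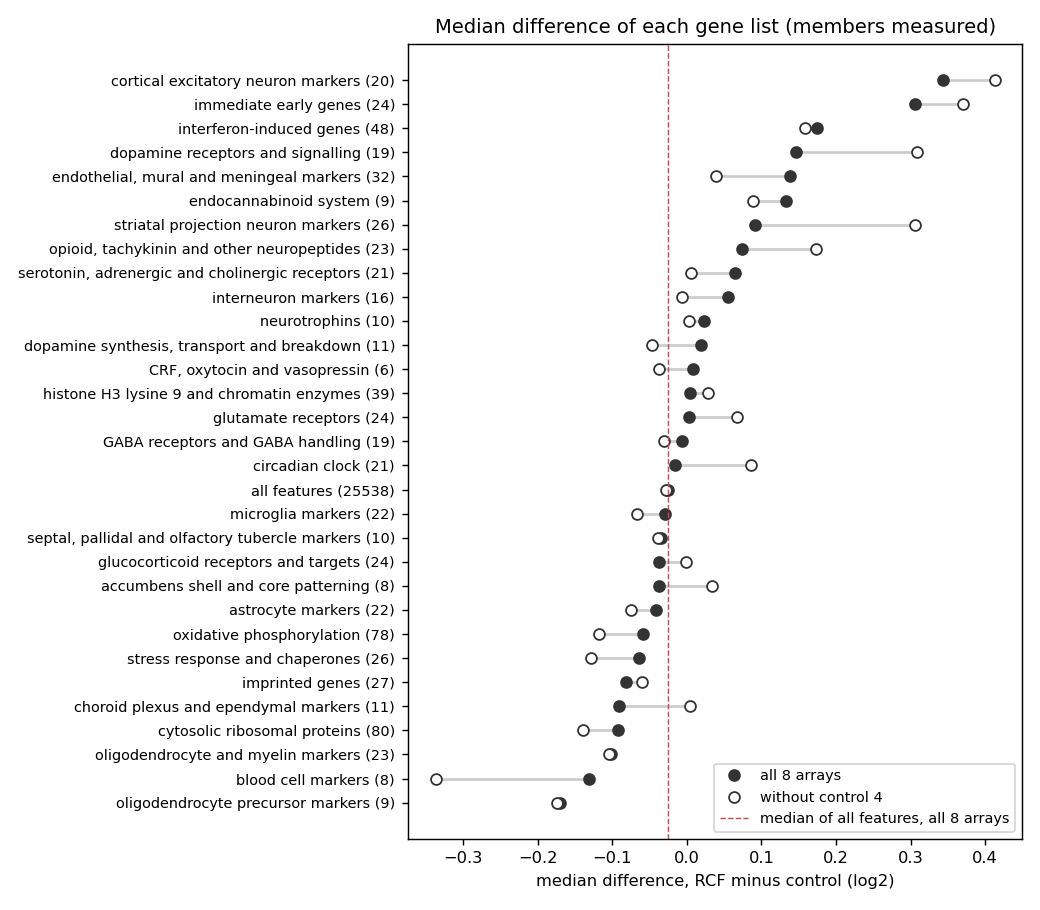
Median difference between RCF and control DBA NAc (x axis, log2) of each gene list with at least 5 measured members, with the number of members measured in brackets; filled points use all 8 arrays, open points leave out control 4, and the dashed line is the median of all features, −0.03. Cortical markers (0.34) and immediate early genes (0.31) lie highest of these lists with all arrays; the striatal and blood lists move most of them when control 4 is left out.

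The RCF difference in the DBA NAc was set against that in the DBA mPFC and in the C57 NAc. The interaction of treatment with region in DBA mice gave 0 of 25538 features at an adjusted p under 0.05 (0%), and 197 at an unadjusted p under 0.05 (0.771%). DBA mPFC control 1, 1 of the 3 control samples of that region, carried marks of another strain and sex: its mean over the strain markers was 11.19, below the midpoint of 12.04 between the strains, and its Xist level was 3.70, against 9.64 to 10.06 in the other controls. A further fit left out every array in doubt by its markers, which are DBA mPFC control 1, DBA NAc control 4 and arrays of the C57 groups. It gave 0 features at an adjusted p under 0.05 and 157 (0.615%) unadjusted. Without DBA NAc control 4 alone there were 0 and 240 (0.94%). Ceacam2, a cell adhesion molecule, differed by 0.35 in the NAc and −0.97 in the mPFC, a difference between regions of 1.32 ± 0.33 (limma, unadjusted p = 0.000597). Without the arrays in doubt the difference between regions was 1.16 ± 0.39. Slc35a3, a nucleotide sugar transporter, differed by −0.37 in the NAc and 0.40 in the mPFC (−0.77 ± 0.24 between regions, and −0.52 ± 0.23 without the arrays in doubt), and Hyou1, a chaperone of the endoplasmic reticulum, by −0.56 and 0.62 (−1.18 ± 0.39, and −0.89 ± 0.42). Cd93, an endothelial lectin, differed by 0.29 in the NAc and −0.42 in the mPFC (0.71 ± 0.22, and 0.57 ± 0.25 without the arrays in doubt), and Hmgn5, a nucleosome-binding protein, by 0.19 and −0.50 (0.68 ± 0.21, and 0.81 ± 0.24).

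The interaction of treatment with strain in the NAc also gave 0 features at an adjusted p under 0.05 (0%), but 2062 at an unadjusted p under 0.05 (8.07%), and 0 and 1913 (7.49%) without control 4. The C57 control group there holds 4 arrays that count as 2 samples, because they form 2 near-identical pairs, and 1 of these pairs, like C57 NAc RCF 1, carried the marks of cortex: the tissue scores of control 1 and control 3 were 0.10 and 0.09 and that of RCF 1 was 0.21, all under the midpoint of 1.96. Without every array in doubt by its markers, which left 1 C57 NAc control sample, 5 features had an adjusted p under 0.05 and 410 (1.61%) an unadjusted one. Acap1, a GTPase-activating protein of Arf6, had the smallest p: RCF minus control was 0.37 in the DBA NAc and −1.81 in the C57 NAc, a difference of 2.18 ± 0.36 (limma, adjusted p = 0.0841), and of 1.94 ± 0.46 (adjusted p = 1) without the arrays in doubt. The values of Acap1 in the DBA NAc were 5.13, 5.01, 5.18 and 4.52 in RCF mice, against 4.95, 4.66, 4.34 and 4.42 in control mice. Its mean over these arrays is close to the floor of the deposited table, above only 0.536% of features. The nucleotide sugar transporter gene Slc35d1 differed by 0.13 in the DBA NAc and −1.24 in the C57 NAc, the transcription factor Sp6 by 0.10 and −1.33, the lipid phosphatase Pip4p1 by −0.40 and 1.94, and the chromatin remodeller Arid1b by 0.06 and −0.93. Without the arrays in doubt the C57 NAc differences were −1.63 for Acap1, −0.90 for Slc35d1, −1.08 for Sp6, 3.02 for Pip4p1 and −0.53 for Arid1b. The DBA NAc and C57 NAc arrays lay on different slides, each of which held both treatments.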

How the data were processed

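RNA of the NAc and mPFC was labelled with Cy3 (200 ng per sample, RNA integrity number at least 8.0, per the labels' protocols) and hybridised to 1-colour arrays. The deposited scanner files hold background-subtracted spot intensity and yes-or-no marks for signal well above background, saturation and outliers, written by Agilent Feature Extraction 10.7.3.1, per the file headers, which name an mm9 design. The matrix the authors deposited gives 30067 probes on the log2 scale; every column is 1 scanner file shifted by a constant, but for 29 of 31 samples that file is listed with another sample. Matrix columns were used by their sample names, and scanner values (Gpnmb, Slc17a7, Neurod6, Drd2 and Drd3) come from the file that the column equals.

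Each gene was represented by its brightest probe. Differences were fitted with limma 3.58.1 (R 4.3.3; moderated test with intensity trend, Benjamini-Hochberg adjustment, threshold 0.05) in 1 model of 8 group means. The code was run on simulated data with independent normal noise and large planted differences, which does not cover arrays that stand apart. In 4 pairs of near-identical arrays, none in the DBA NAc, the arrays differed by less than 1.5 times the spread between repeated spots and were averaged, leaving 27 samples. Figures were drawn with matplotlib 3.10.9 and tables handled with pandas 2.3.3 and numpy 2.4.6 under Python 3.11.15. Genes were named from the array's own columns and RefSeq. Named genes are the 10 with the smallest p in each direction, the 5 in each direction without control 4, the 5 largest non-overlapping differences each way, up to 4 members of each list by p, a fixed set of receptor, peptide, stress, activity and Xlr genes, and the 5 with the smallest p in each interaction; a few of these are not reported here. The members and lists were chosen with earlier results of these data known. Replicate numbers were not used to pair the samples, except as a block in 1 alternative. Alternatives covered arrays left out, samples in the fit, a covariate and blocks, array weights, normalization, background correction, probe choice and array assignment.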

Additional observations from a re-analysis of the deposited data

Results flagged for a closer look

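In 11 of 110 groups of 4 arrays tested, 1 array stood apart from the other 3, its gap to the nearest being over 0.829 of the group's range; chance gives about 1 in 20 for groups that are independent and not chosen by their values, and these are neither, since many genes were named for their differences and the striatal markers move together. RCF 3 stood apart from the other RCF arrays for the mean of striatal projection neuron markers (11.73), Drd1 (10.02), Pdyn (13.38) and Tac1 (13.82), and control 1 from the other controls for Penk (15.78). RCF 4 stood apart for Spint2 (8.73), Olfr94 (3.88) and Oxtr (10.04). Control 4 stood apart for Glo1 (12.73) and Mzt1 (11.39), and control 3 for Olfr94 (6.55). The values that move with these arrays are given above with the marker lists, and their part was not tested.

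Outside the deposited matrix, 10 of 33841 scanner features were well above background on all 4 RCF arrays and on none of the 4 control arrays, and 0 the other way round. Among them were the named genes Pla2g2e, a secreted phospholipase, and Xpnpep2, an aminopeptidase. Pla2g2e averaged −5.28 in RCF mice and −6.11 in control mice on the log2 scale relative to the 75th percentile, at least 1.60-fold higher against the detection limit (limma, unadjusted p = 0.0137, adjusted p = 1). Xpnpep2 averaged −5.43 in RCF mice and −6.43 in control mice, at least 1.57-fold higher (unadjusted p = 0.0577, adjusted p = 1). The groups overlapped for Xpnpep2, with RCF 1 at −5.77 and control 3 at −5.65. For Pla2g2e they nearly touched, with RCF 1 at −5.67 and control 3 at −5.68, so the marks fell on either side of a limit. Both genes were chosen for this pattern and passed the detection filter only through the RCF arrays. Their folds and p-values are therefore no support for a difference.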

How the results depend on the processing

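The count of features at an adjusted p under 0.05 was 0 under every alternative run except the scanner files taken with the samples they are listed with, which gave 5471, and 5450 without control 4. There every array taken as a DBA NAc control is, by its matrix column, a C57 NAc array of another slide. The arrays taken as DBA NAc RCF are DBA NAc arrays of both treatments, control 4 among them. The contrast there is thus between strains and slides, and leaving out control 4 leaves out a C57 array. Under that assignment the differences turned for Sprr4 (−1.82, and −1.52 without control 4), Ifi44 (−0.39 and −0.31), Cftr (−2.35 and −2.58), G6pc (−1.32 and −1.17), Oas1f (−0.55 and −0.48), Akap7 (−1.84 and −1.99), Ezhip (0.11 and 0.17) and Gab3 (−1.11 and −1.22). Under the other 47 combinations of an alternative with or without control 4, all 21 reported genes with the smallest p kept their direction, and the lowest adjusted p was 0.133, for Sprr4. These genes were chosen by their p in the same arrays, so a kept direction is no independent support. Their unadjusted limma p rose as high as 0.497 for Gab3 and 0.488 for Bmp10.

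The 433 features at an unadjusted p under 0.05 (255 without control 4) became 158 (143) with the 8 arrays fitted alone, 137 (147) with slide row as a block, 904 (894) with array weights and 698 (463) with scanner values of 33841 features. Leaving out 1 array gave 154 to 1591. Alternatives chosen after seeing the data gave 1467 without RCF 3 and control 4 and 281 without RCF 3, RCF 4 and control 1. Deviations of arrays with the same replicate number correlated at −0.267, 0.194, −0.422 and 0.060. Because single arrays stood apart, these values cannot decide whether the numbers pair samples, and the main fits take the samples as unpaired. The replicate block gave 0 features at an adjusted p under 0.05 and 125 (164) unadjusted, and the cause of this change was not tested.

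The median of the striatal list ran from −0.48 without RCF 4 and control 1 to 0.82 without RCF 3 and control 4, that of immediate early genes from 0.0045 to 0.73 under the same choices, that of oxidative phosphorylation from −0.15 to 0.05, and that of the Xlr family from 0.63 with normexp to 1.56 with array weights. The strain interaction, 0 features with all samples and 0 without control 4, was 5 without samples in doubt by their markers, which left the C57 NAc controls with 1 sample: Stk32a, Pip4p1, Slc8a2, Mbd6 and an unnamed probe, with differences of −0.31, −0.44, 0.42, 0.20 and 0.09 in the DBA NAc and −3.99, 3.02, 3.86, −2.08 and −3.56 in the C57 NAc.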
